A study of Mus musculus with 10 samples.

Results

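Peritoneal macrophages of aged mice labelled Trem1-/- were compared with those of aged wild-type mice, as 3 RNA sequencing libraries against 3. These are 6 of the 10 libraries of the series, chosen by the age and genotype in their labels: replicates 3, 4 and 6 of aged wild type and replicates 1, 2 and 3 labelled Trem1-/-. The other 4 libraries, from young wild-type mice, are used as a reference level and add to the estimate of the spread between libraries. Every library is labelled as primary mouse peritoneal macrophages, and the label names a homozygous loss of Trem1 in the whole mouse, with no cell type restriction, allele design, strain, sex or age in months. The labels do not say how the cells were isolated or whether each library came from a separate mouse, so p-values here measure a spread between libraries that may be technical. No young Trem1-/- library was analysed here, so the genotype is compared at 1 age.

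TREM1 is an activating receptor of the immunoglobulin family on neutrophils, monocytes and macrophages. It has no signalling motif of its own and pairs with the adaptor DAP12 (gene Tyrobp), whose motif recruits the kinase SYK, and it amplifies the output of Toll-like receptors. Resident macrophages of the peritoneal cavity are long-lived cells that depend on the transcription factor GATA6, take up dying cells, and secrete coagulation, complement and matrix proteins.

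Values below are normalized counts, that is reads of a gene divided by 1 factor per library, and they are not adjusted for gene length, so they compare libraries and not genes. The aged wild-type libraries are called WT3, WT4 and WT6 and the libraries labelled Trem1-/- KO1, KO2 and KO3, after their replicate numbers, and per-library values are always given in that order. A log2 fold change is the difference of mean log2(normalized count + 1), Trem1-/- minus wild type, with its standard error (SE). A gene "rose" or "fell" where its limma p-value, adjusted over all 11506 genes tested, was under 0.05. A call is said to hold where it also passed without each of the 6 aged libraries in turn. Genes are named by a rule given in the processing notes, and their lists were set with earlier results of these data known. Besides anchor genes, the list genes shown are those with the smallest adjusted p. Their lack of overlap between groups follows in large part from that choice and is no added support. Of all genes tested, 34.9% had groups that did not overlap.

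The aged libraries held 2663744 to 4628187 recovered reads, and 3 reads corresponded to 2.40 to 3.84 normalized counts. Composition differed between the groups. Protein-coding genes took 77.0% to 80.8% of the reads in the WT libraries and 84.7% to 87.0% in the KO libraries. Mitochondrially encoded transcripts took 3.17% to 5.26% against 1.26% to 2.39%, and the noncoding gene Gm26917 took 8.38% to 12.9% against 4.999% to 5.68%. The number of genes with at least 1 read was 21323 to 26032 against 18421 to 22326. On the principal components of the 6 aged libraries, the first (49.3% of the variance) separated the groups, with the WT libraries between -55.5 and -13.8 and the KO libraries between 29.5 and 37.0. WT4 stood apart on the second (17.7%) and held 0.618% globin reads against 0.0143% and 0.0132% in its group. The part of these differences in the results below was not tested beyond leaving out each library.

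Trem1 itself did not separate the groups. Trem1 (ENSMUSG00000042265.13, GRCm38 chromosome 17, 48232768 to 48246924, plus strand) had 64.0, 15.3 and 27.0 normalized counts in aged wild type and 23.5, 106 and 13.8 in the KO libraries. The highest value of all 6 libraries was in KO2, and the ranges overlapped. The ratio of the means was 1.35 (exact two-sided permutation p = 0.9, where 0.1 is the smallest p that 3 against 3 libraries allow), and 0.526 without KO2. A targeted allele may still give reads over the rest of its gene, and the labels do not say which exons were changed, so this count does not check the genotype, which is taken from the labels.

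In all, 1327 genes rose and 785 fell, which is 11.5% and 6.82% of the genes tested, and 423 and 402 of them by more than 2-fold. The counts of every gene list below are to be read beside these shares of all genes tested. Of all that rose and fell, 615 and 200 held. The median log2 fold change over all genes tested was 0.02, and 34.9% of genes had groups that did not overlap. With the 6 aged libraries alone, 726 genes rose and 445 fell, and leaving out 1 aged library gave 762 to 1782 higher and 318 to 1020 lower. Counts were lowest without WT3 and highest without WT4, and they also moved by over 1.5 times without WT6 (836 and 348), KO1 (873 and 431) and KO2 (778 and 333). On the recovered whole reads, edgeR called 9.86% of the genes higher and 8.26% lower (18.1% in all), and DESeq2 called 8.94% lower and 19.9% in all. The share of genes that rose was 2.65% in the lowest of 5 equal groups of genes by mean level and 25.8% in the highest, while the share that fell went from 5.39% to 8.26%. The plot of fold change against level shows this widening of the calls toward abundant genes.

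**Figure D1:**
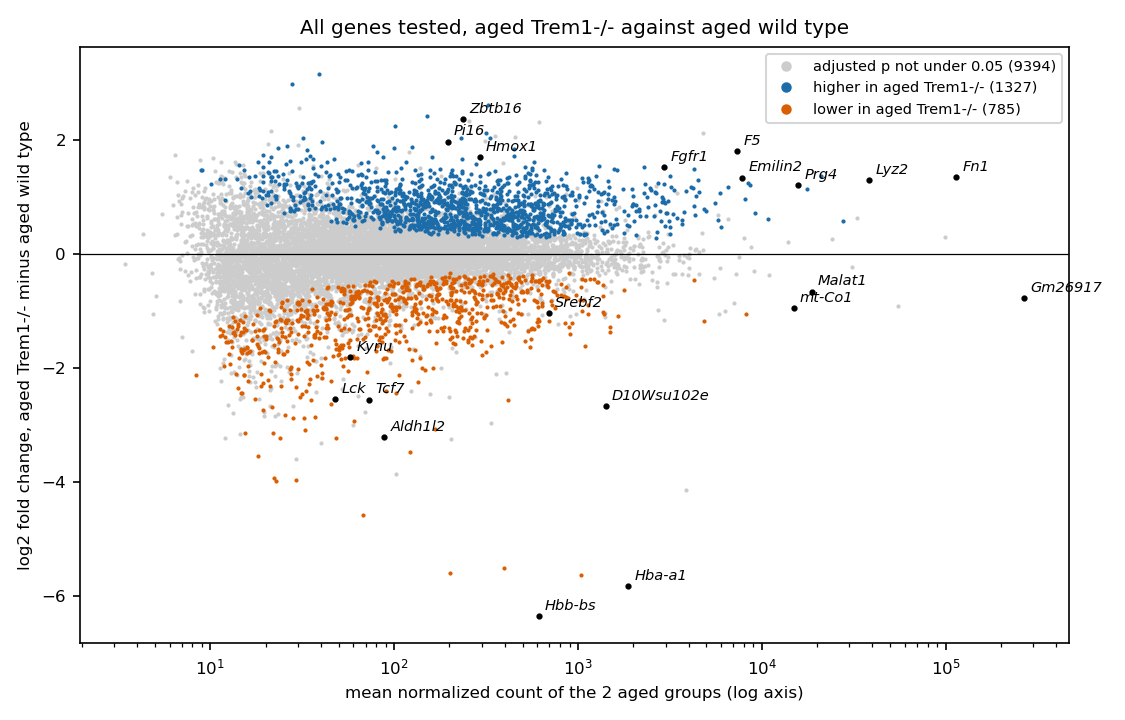
Log2 fold change (aged Trem1-/- minus aged wild type) against the mean normalized count of the 6 aged libraries on a log axis, 1 point per gene tested. Blue points (1327) rose and orange points (785) fell, and 20 named genes are marked in black. Fn1, Lyz2 and F5 lie among the most abundant genes that rose, and Gm26917 is the most abundant gene that fell (limma adjusted p = 0.0455). The call of Gm26917 was lost without any 1 aged library other than WT4 (adjusted p from 0.062 to 0.134).

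Among calls that held and whose groups did not overlap, the 12 largest rises included genes of a coagulation factor, a peptidase inhibitor and a transcription factor. F5, which encodes coagulation factor V and is a known product of resident peritoneal macrophages (chromosome 1, 164151838 to 164220277, plus strand), had 2221, 3442 and 4420.2 normalized counts in aged wild type and 10892, 12921 and 10191 in the KO libraries. Every KO library was more than 2 times the highest WT library, and the log2 fold change was 1.80 ± 0.21 SE (adjusted p = 0.0013). Young wild type had 9866 ± 739 (SD, n = 4). Pi16, a peptidase inhibitor (chromosome 17, 29317680 to 29330593), had 57.6, 88.4 and 95.2 against 339, 297 and 296 (1.97 ± 0.18, adjusted p = 0.000619). All 3 KO libraries were more than 3 times the highest WT library, and young wild type was at 263 ± 27.7 (SD, n = 4). Zbtb16, the transcription factor PLZF (chromosome 9, 48654297 to 48836222), had 89.6, 65.5 and 51.2 against 544, 519 and 151 (2.37 ± 0.46). Here KO3 was the lowest of its group but above every WT library, which the choice of genes required.

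Fzd1, a Wnt receptor, had 93.4, 82.9 and 164 against 396, 839 and 317 (2.11 ± 0.32), with KO2 highest. Tjp1, the tight junction scaffold ZO-1, had 39.7, 76.4 and 47.6 against 162, 233 and 193 (1.87 ± 0.31). Hgf, hepatocyte growth factor, had 10.2, 15.3 and 23.4 against 74.6, 73.7 and 45.9 (1.96 ± 0.29). The groups overlapped for none of these 3 genes, which the rule that chose them required. The rest of the 12 largest rises were Map3k6, a kinase of the MAP kinase cascade, Tppp3, a tubulin-binding protein, Gprc5b, an orphan receptor, Jdp2, a leucine zipper repressor of AP-1, Car6, a secreted carbonic anhydrase, and Fabp4, a fatty acid carrier of macrophages and adipocytes. Their log2 fold changes ran from 1.71 to 2.25. Exons of F5, Pi16, Gprc5b, Hgf and Jdp2 overlap other annotated genes, and whether reads were counted by strand is not given in the sources used here, so part of their reads may belong to the overlapping gene.

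The 12 largest falls chosen in the same way included genes of T cells and a pair of neighbouring genes. Lck, the kinase of the T cell receptor (chromosome 4, 129548344 to 129573641, minus strand), had 127, 57.8 and 62.9 normalized counts in aged wild type and 7.15, 17.6 and 14.9 in the KO libraries (-2.54 ± 0.37, adjusted p = 0.00212). Tcf7, the transcription factor TCF1 of T cells, had 169, 111 and 89.8 against 9.20, 40.1 and 19.5 (-2.55 ± 0.43). Both were also low in young wild type, at 12.7 ± 1.72 (SD, n = 4) for Lck and 28.1 ± 6.31 (SD, n = 4) for Tcf7. Thy1, the surface glycoprotein CD90, had 79.4, 46.9 and 42.2 against 2.04, 14.4 and 8.03 (-2.87 ± 0.64), and Ms4a4b, a membrane protein of T cells, had 57.6, 51.3 and 62.9 against 4.09, 18.4 and 2.29. In each of these 4 genes every KO library lay below every WT library, which the rule that chose them required.

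A pair of neighbours on chromosome 10 fell together. Aldh1l2, the mitochondrial 10-formyltetrahydrofolate dehydrogenase (83487450 to 83534140, minus strand), had 211, 93.8 and 174 against 14.3, 8.81 and 28.7 (-3.21 ± 0.48, adjusted p = 0.00252), and D10Wsu102e (83360221 to 83488505, plus strand) had 3650.3, 1328 and 2424 against 341, 310.0 and 429 (-2.67 ± 0.30, adjusted p = 0.00121). The WT libraries had the same order in both genes, WT3 highest and WT4 lowest. Young wild type had 2.23 ± 1.22 (SD, n = 4) for Aldh1l2 and 139 ± 30.7 (SD, n = 4) for D10Wsu102e. Their exons overlap on opposite strands, so reads of the 2 genes cannot be fully told apart here. The others of the 12 largest falls were Eppk1, an epithelial plakin, Mcc, a regulator of cell migration, Shisa8, St3gal6, a sialyltransferase, 1700027J07Rik and 3425401B19Rik, with log2 fold changes from -3.22 to -2.56. Aldh1l2 and all of these but Mcc reached the minimum mean of 10 only through the aged wild-type libraries, where they were high. Their KO reads were few, such as 1, 2 and 5 for 1700027J07Rik and 9, 15 and 3 for Eppk1, so the size of these falls is uncertain.

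**Figure D2:**
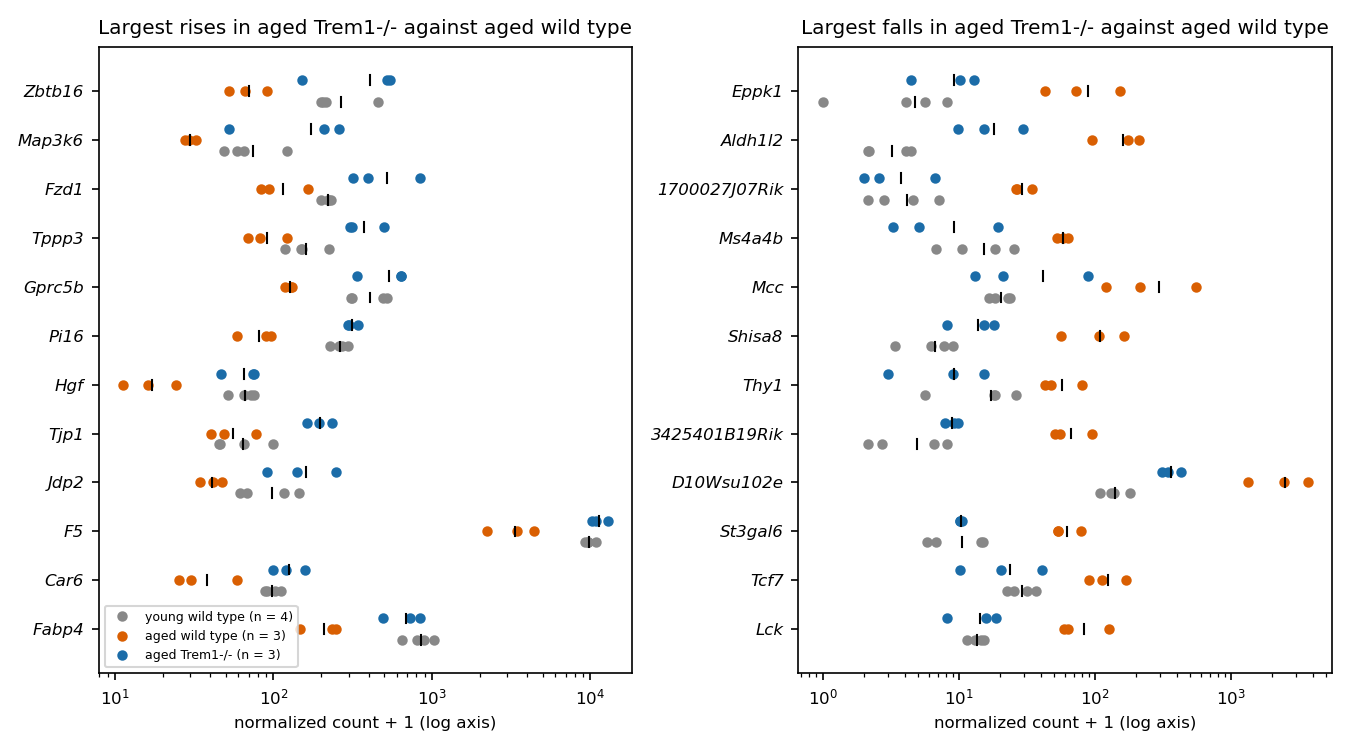
Normalized count + 1 on a log axis for the 12 largest rises (left) and 12 largest falls (right), 1 point per library, with the mean of each group as a black tick. The genes were chosen so that the aged Trem1-/- points (blue, n = 3) and aged wild-type points (orange, n = 3) do not overlap. Young wild type (grey, n = 4) is drawn for reference.

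The labelled cell type was checked against its markers, and macrophage markers were higher in the KO libraries. The 10 markers summed to 23072, 37450 and 30863 normalized counts in aged wild type and 67694, 79486 and 62249 in the KO libraries, with no marker at 0 in any library, and 8 of 10 rose (7 or 8 without 1 aged library). Adgre1, which encodes the surface marker F4/80, had 1847, 2538 and 1959 against 4693, 4788 and 4227 (1.12 ± 0.14, adjusted p = 0.00166), beside 4707 ± 468 (SD, n = 4) in young wild type. Lyz2, the lysozyme of macrophages, had 16977, 26847 and 23392 against 51142, 64105 and 47328 (1.29 ± 0.20), and Csf1r, the receptor of macrophage colony-stimulating factor, 1550.0, 2719 and 1808 against 3701, 3703 and 3711 (0.91 ± 0.17). All 3 genes separated the groups without overlap and held. In bulk RNA, fewer cells of a type and less RNA of its genes per cell cannot be told apart, which applies to each gene group below.

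Markers of lymphocytes moved the other way. The 9 T and NK cell markers tested had a median log2 fold change of -2.06, and 7 of 9 fell (4 to 8 without 1 aged library, with 4 without WT3). Their summed level was 1131, 741 and 962 in aged wild type and 471, 471 and 533 in the KO libraries, with the NK receptor Ncr1 at 0 in all 3 of the latter. Cd3g, a chain of the T cell receptor complex, had 70.4, 26.2 and 51.2 against 8.17, 10.4 and 13.8 (-2.01 ± 0.38), and Il2rb, the interleukin-2 receptor beta chain, 141, 91.7 and 111 against 20.4, 42.5 and 20.6 (-2.06 ± 0.41). Both held. The 12 B cell markers summed to 23182, 15310 and 22148 against 10788, 7197 and 14355, and 5 of 12 fell. At an unadjusted p under 0.05 all 12 were lower. The count of 5 became 9 without WT4 and 8 without KO3, 3 without WT3, 1 without KO1 and 0 without WT6 or KO2. Ighd, the heavy chain of IgD, had 438, 453 and 705 against 228, 245 and 212 (-1.18 ± 0.31), and its call was lost without WT6, KO1, KO2 or KO3 (adjusted p from 0.0564 to 0.0923).

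Markers of other cell types that a peritoneal preparation can hold moved in both directions. Erythroid markers fell in 5 of 5 members tested, from sums of 530, 23701 and 473 to 21.5, 57.7 and 17.2. WT4 held nearly all of that signal. The 5 calls also passed without it, but 0 of them held. Only Hbb-bt passed without KO1 and only Hbb-bs without KO3. DESeq2 gave none of the 5 an adjusted p. Mesothelial, epithelial and fibroblast markers summed to 690, 685 and 647 against 14.3, 504 and 125, where 1 of 8 tested (Krt18) fell. Mast cell markers summed to 1053, 869 and 1979 against 121, 1517 and 156, so KO2 lay inside the WT range. Of 6 mast cell markers tested, 0 passed limma, also at an unadjusted p under 0.05, and 0 passed edgeR. Dendritic cell markers summed to 92.2, 104 and 119 against 145, 282 and 110.1, with overlapping groups; 4 of 4 tested were higher in mean (median log2 fold change 1.03) and 1, Itgax, rose, a call lost without WT3, WT4, KO1 or KO2 (adjusted p from 0.056 to 0.164). Eosinophil markers summed to 532, 214 and 393 against 132, 84.1 and 250, with Prg2 at 0 in all 6 aged libraries and Epx at 0 in every KO library. Only 1 of the 5 eosinophil markers, Il5ra, was tested, and it fell (-1.46). Its call was lost without WT3, WT6, KO1 or KO2 (adjusted p from 0.0885 to 0.113). Neutrophil markers were higher in the KO libraries (211, 557 and 341 against 741, 757 and 764), a sum held by Csf3r, which macrophages also express, while Mpo and Ly6g were at 0 there. The part of these cells in the gene results was not tested.

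**Figure D3:**
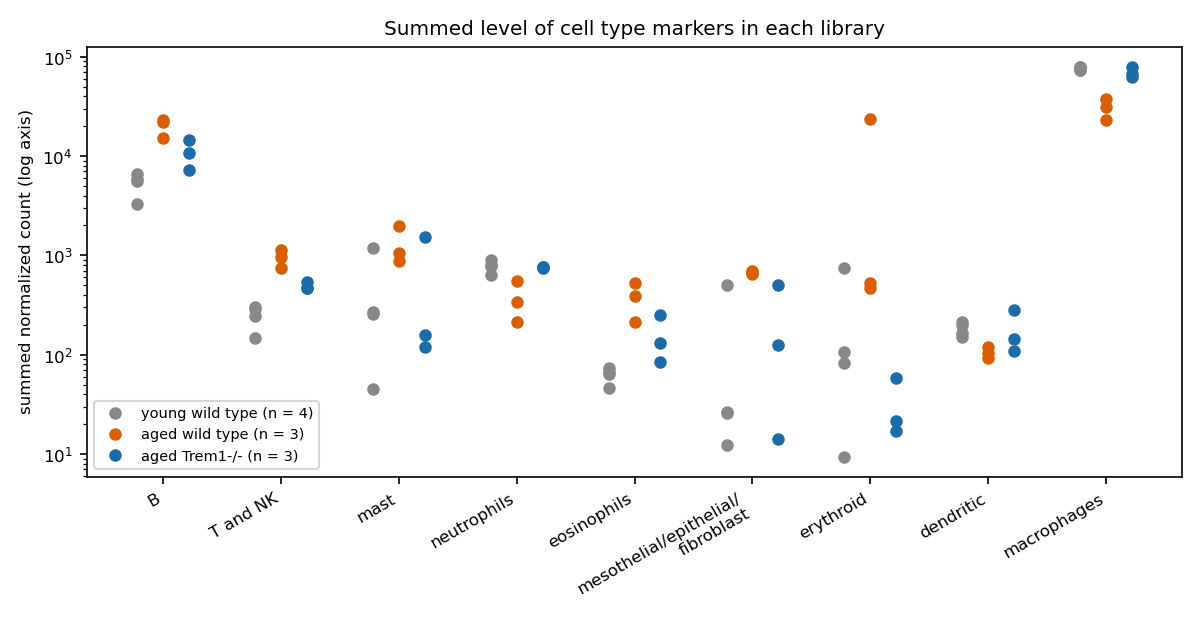
Summed normalized count of 9 marker lists on a log axis, 1 point per library. Macrophage markers in aged Trem1-/- (blue, 62249 to 79486) lie above aged wild type (orange, 23072 to 37450), T and NK cell markers lie below it, and 1 aged wild-type library is high for erythroid markers (23701).

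Genes of resident peritoneal macrophage identity had the highest median of the 42 lists of pathways and gene families. All 31 members were tested, 23 rose and 0 fell (edgeR 21 and 0), with a median log2 fold change of 1.19, and 19 held. Gata6, the master transcription factor of these cells, had 75.5, 151 and 179.7 against 309, 292 and 352 (1.31 ± 0.25, adjusted p = 0.00593), beside 386 ± 33.1 (SD, n = 4) in young wild type. Ltbp1, a carrier of latent TGF-beta, had 1505, 2955 and 2478 against 5784, 6424 and 6532 (1.49 ± 0.20), and Prg4, lubricin, had 7216, 11957 and 9789 against 21872, 22666 and 20980.5 (1.21 ± 0.17). In these 3 genes the lowest KO library was above the highest WT library. Below, lists given with 0 falls had 0 to 4 members lower at an unadjusted p under 0.05, and 0 or 1 lower by edgeR and, among genes with an adjusted p, by DESeq2. Timd4, the phosphatidylserine receptor TIM-4 of long-lived resident macrophages, did not follow: it had 346, 839 and 513 against 914, 518 and 956 (adjusted p = 0.375), with overlapping groups and young wild type at 1546 ± 559 (SD, n = 4).

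Among 31 macrophage transcription factors tested (of 33), 17 rose and 3 fell, with a median of 0.78, and 11 of the rises and 0 of the falls held. Bach1, a haem-sensing repressor, had 302, 369.9 and 344 against 913, 1291 and 701 (1.47 ± 0.18). Rxra, a nuclear receptor that maintains these cells, had 196, 252 and 267 against 572, 571 and 506 (1.21 ± 0.13), Id2, an inhibitor of DNA binding, 164, 149 and 217 against 515, 576 and 346 (1.42 ± 0.19), and Maf, a factor of tissue macrophages, 124, 209.5 and 119 against 305, 387 and 319 (1.19 ± 0.19). These 4 genes did not overlap between groups. The 3 that fell were Bhlhe41, a repressor also active in B-1 cells (-1.34 ± 0.38), Tfeb, a regulator of lysosomal genes (-0.73 ± 0.20), and Irf8, a factor of monocytes and B cells (-0.54 ± 0.17). Bhlhe41 and Tfeb lost their calls without WT3, WT6 or KO2, Tfeb also without KO1, and Irf8 without WT4, WT6 or any 1 KO library (adjusted p from 0.0528 to 0.121 over the 3 genes).

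Coagulation and complement genes, whose products these macrophages secrete, had rises and no fall. Of 16 coagulation and fibrinolysis genes tested (of 22), 6 rose and 0 fell (edgeR also 6 and 0), with a median of 0.86. Besides F5, F10, coagulation factor X, had 547, 1146 and 844 against 2374, 2712 and 1843 (adjusted p = 0.00378), Pros1, protein S, 264, 518 and 409 against 943, 982 and 998 (1.35 ± 0.19), and Serpinb2, plasminogen activator inhibitor 2, 781, 706 and 1185 against 1543, 2375 and 1734 (1.09 ± 0.22). All held, and no groups overlapped, which the choice of genes by small adjusted p favours. Of 20 complement genes and receptors tested (of 25), 13 rose and 0 fell, with a median of 0.85. Cfp, properdin, the stabiliser of the alternative pathway, had 1254, 2276 and 1892 against 4440.4, 5267 and 3940.3 (1.36 ± 0.19), and C1qc, a chain of the classical pathway's C1q, 1646, 2891 and 1963 against 3738, 4444 and 3901 (0.93 ± 0.17). The complement count was 7 without WT3 and 8 without KO2. Complement C4b, among the most abundant genes that rose, had 8154, 16408 and 9597 against 27837, 21546 and 22812; it shares sequence with C4a and lost its call without WT3, WT6 or KO1 (adjusted p from 0.071 to 0.0778).

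Matrix genes included the most abundant transcript that rose. Fn1, fibronectin (chromosome 1, 71585520 to 71653200, minus strand), had 47186, 75564 and 73228 against 163510, 184767 and 140937 (1.34 ± 0.24, adjusted p = 0.00484), beside 210713 ± 24987 (SD, n = 4) in young wild type. Emilin2, an elastic fibre glycoprotein, had 3493, 5188 and 4731 against 10609.5, 11745 and 11073 (1.34 ± 0.15), and Ecm1, a secreted matrix protein, 1879, 3604 and 2489 against 5925, 6602 and 6338 (1.29 ± 0.19). Every KO library was above every WT library for these 3 genes. Of 26 extracellular matrix and protease genes tested (of 38), 15 rose and 1 fell, with a median of 0.76, and 7 of the rises held. The count of rises was 8 without WT3 and 9 without WT6, KO1 or KO2. Hspg2, perlecan, fell (-1.42 ± 0.43), with overlapping groups, and lost its call without WT3, WT6, KO1 or KO3 (adjusted p from 0.0663 to 0.131). Thbs1, thrombospondin-1, had 9917, 9125 and 14749 against 20085, 49932 and 22523, with KO2 far above the rest, and its call was lost without WT3 (adjusted p = 0.055).

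Receptors for the uptake of dying cells and of modified lipoproteins had rises and no fall. Of 22 dying-cell uptake genes tested (of 28), 11 rose and 0 fell, with a median of 0.59, and 8 held. Mertk, a receptor kinase for protein S and GAS6 on dying cells, had 197, 348 and 200.3 against 605, 712 and 419.8 (1.24 ± 0.23), and Mfge8, a bridge to phosphatidylserine, 56.3, 90.6 and 84.5 against 192, 251 and 171 (1.41 ± 0.19). The groups did not overlap for either gene. Of 16 scavenger receptors tested (of 21), 8 rose and 0 fell by limma (edgeR 6 and 1), with a median of 0.78, and 4 held. Lrp1, a large endocytic receptor, had 4276, 7228 and 5245 against 10459, 10731 and 10689.8 (0.96 ± 0.16), and Cd36, a receptor of oxidised lipoprotein, 447, 803 and 447 against 1369, 909 and 1062 (1.01 ± 0.21). Marco, a receptor of bacteria and particles, had 346, 856 and 179 against 879.7, 342 and 1418 (adjusted p = 0.232), with overlapping groups. The scavenger count was 5 without WT3 or WT6 and 4 without KO2.

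Integrins and Fc receptors had calls in both directions. Of 14 integrins tested (of 18), 6 rose (42.9%) and 1 fell (7.14%), and 4 of the rises and the fall held. Of all genes tested, 11.5% rose and 6.82% fell. Itgb2, the shared beta-2 chain, had 3231, 4876 and 4086 against 9422, 9213 and 8413 (1.17 ± 0.15), and Itgam, its macrophage partner CD11b, 1188, 2360.3 and 1682 against 4060.3, 3385 and 3188 (1.07 ± 0.22). Itgal, its partner CD11a that lymphocytes carry, fell from 817, 400.5 and 469 to 201, 216 and 284 (-1.21 ± 0.27). Of 12 Fc receptor genes tested (of 13), 2 rose (Fcer1g and Fcgr3) and 3 fell (Fcrl1, Fcrla and Fcer2a, which B cells express). These were 16.7% and 25%. Fcer1g, the common gamma chain, had 154, 313 and 217 against 486, 441 and 405 (1.01 ± 0.20), and Fcrl1, a B cell receptor of this family, 259.8, 125 and 142 against 39.8, 37.7 and 35.6 (-2.12 ± 0.29). Both of these calls held, while Fcgr3 and Fcer2a each lost theirs without 5 of the 6 aged libraries and Fcrla without WT3, WT6 or KO2 (adjusted p from 0.0568 to 0.16). Rises numbered 4 without WT4 and 1 without any other 1 aged library, and falls 1 without WT6 or KO2 and 2 without WT3, WT4 or KO1. Part of the sequence of Itgam is shared with the annotated gene Gm49368.

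Of the TREM1 signalling list, the adaptor DAP12 rose and the kinase SYK did not pass. Among 24 members tested (of 28), 4 rose and 4 fell, with a median of -0.14. That was 16.7% in each direction, against 11.5% and 6.82% of all genes tested. Of these calls, 2 of the rises and 0 of the falls held. Tyrobp, the adaptor DAP12, had 499, 781 and 554 against 1290.4, 1341 and 1069 (1.03 ± 0.16, adjusted p = 0.00268). Vav3, a guanine nucleotide exchange factor downstream of immune receptors, had 115, 204 and 105 against 356, 307 and 279.9 (adjusted p = 0.00589). Syk, the kinase recruited by DAP12, had 5111, 3755 and 4537 against 3272, 3148 and 3966 (adjusted p = 0.121), and its groups overlapped. Card9 and Akt1 also rose and Lat, Treml2, Plcg1 and Vav1 fell, but each lost its call without 3 or more of the 6 aged libraries, WT3 among them (adjusted p from 0.0606 to 0.136). Lat had a mean of 29.9 in aged wild type, 9.24 in the KO libraries and 9.33 in young wild type. It reached the minimum mean of 10 only through aged wild type, where it was high. Without WT3, 2 members rose and 0 fell, without WT6, KO1 or KO2 the counts were 2 and 2, and without KO3 they were 4 and 0.

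Toll-like receptors, whose output TREM1 amplifies, had a few calls in both directions. Of 23 receptors and adaptors tested (of 26), 4 rose and 4 fell, with a median of 0.24. That was 17.4% in each direction, against 11.5% and 6.82% of all genes tested. Tlr13 and Tlr7, endosomal sensors of RNA, rose from 155, 321 and 252 to 666, 656 and 474 (1.34 ± 0.24) and from 183, 129 and 139 to 240.1, 229.9 and 233 (0.65 ± 0.14). Tlr1, a partner of TLR2 at the cell surface, fell from 78.1, 79.7 and 87.1 to 35.8, 28.8 and 32.1 (-1.32 ± 0.19). These 3 held. Tlr4, the receptor of endotoxin, had 98.6, 215 and 122 against 202, 280.4 and 206 (adjusted p = 0.0666). Tlr9, a DNA sensor that B cells also carry, fell by 1.17 ± 0.36 on the log2 scale, which did not pass without WT3, WT6, KO1 or KO2 (adjusted p from 0.0929 to 0.146). The count of rises was 7 without WT4 and 2 without KO2, and that of falls was 1 without WT3 or WT6 and 2 without KO1 or KO2.

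Few inflammatory cytokine genes passed in either direction. Of 24 cytokine and NF-kB feedback genes tested (of 31), 1 rose (Tnfaip2) and 1 fell (Rel, an NF-kB subunit), below the background shares, and neither held; edgeR also called 1 and 1. Il1b, interleukin-1 beta, had 160.0, 48.0 and 119 against 12.3, 195 and 26.4 (adjusted p = 0.304), and Tnf had 23.0, 7.64 and 31.4 against 4.09, 33.6 and 5.74 (adjusted p = 0.552). The highest value of both genes was in KO2, and the groups overlapped. The immediate-early genes Fos and Egr1 were likewise high in KO2 and low in the other two KO libraries: Fos had 3926, 627 and 2392 against 585, 3651 and 1105, and Egr1 had 1608, 309 and 1081 against 330.0, 1426 and 284. Of 27 immediate-early genes tested (of 30), 1 rose and 0 fell, with 4 lower at an unadjusted p under 0.05, and 7 fell without WT4.

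Chemokine and interferon-stimulated genes had shares of rises near the 11.5% of all genes tested. Of 24 chemokine genes tested (of 32), 3 rose (Ccl6, Ccl9 and Cxcl12) and 1 fell (Ccl5, which T and NK cells make). Ccl9, a macrophage chemokine, had 549, 1039.9 and 489 against 1521, 1948 and 1297 (1.26 ± 0.25) and held. Cxcl13, the B cell attractant made by peritoneal macrophages, had 1471, 1727 and 1399 against 1896, 4151 and 5316, above 707 ± 307 (SD, n = 4) in young wild type, and narrowly missed the threshold (adjusted p = 0.0538 by limma, 0.0414 by edgeR) although its groups did not overlap. Of 30 interferon-stimulated genes tested (of 32), 3 rose and 0 fell (Bst2, Oas1a and Oas2, log2 fold changes 0.89 to 1.27), and Bst2 held. That count was 8 without WT4 and 1 without WT3, WT6, KO2 or KO3, and the chemokine count was 5 without WT4 and 1 without the same 4 libraries. Of 16 MHC class II genes tested (of 17), 1 rose (Ctss) and 2 fell (H2-DMb2 and H2-Ob), but 9 fell without WT4 and 0 without WT3, WT6, KO1 or KO2.

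Of 23 genes of eicosanoid synthesis and its receptors tested (of 29), 11 rose and 0 fell, with a median of 0.82, and 6 held. Alox15, the 12/15-lipoxygenase of resident macrophages, had 3648, 6794 and 5581 against 13155, 11692 and 11016 (adjusted p = 0.00303). Alox5ap, the activator of 5-lipoxygenase, had 233, 354 and 261 against 642, 727 and 648 (1.27 ± 0.14, adjusted p = 0.00121). Ptgis, prostacyclin synthase, had 199.7, 344 and 339 against 629, 669.8 and 894 (1.34 ± 0.21), all KO values above those of WT and below the young mean of 1223 ± 151 (SD, n = 4). Ptgs1, cyclooxygenase 1, had 209.9, 731 and 434 against 868, 1010.3 and 696 with overlapping groups (1.06 ± 0.33, adjusted p = 0.0457 by limma and 0.0834 by edgeR), and its call was lost without any 1 aged library other than WT4 (adjusted p from 0.0554 to 0.135). The eicosanoid count was 6 without WT3 and 7 without WT6 or KO2.

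The lysosome list, among the longest, had the largest number of calls but not the largest share. Of its tested members 58.6% rose, against 74.2% of resident identity genes and 65% of complement genes. Of all genes tested 11.5% rose, and 25.8% did in the most abundant of the 5 equal groups. Of 58 members tested (of 60), 34 rose and 0 fell (edgeR 32 and 0), with a median of 0.63, and 20 held. Man2b1, a lysosomal alpha-mannosidase, had 2036, 3001 and 2565 against 5278, 6674 and 5087 (1.17 ± 0.15), Grn, progranulin, 1871, 3058 and 2488 against 5284, 5487 and 4955 (1.11 ± 0.15), and Lamp1, a membrane glycoprotein of the organelle, 1105, 1887 and 1280.2 against 2649, 2573 and 2401 (0.87 ± 0.16). The groups did not overlap for any of the 3. Glb1, beta-galactosidase, had 149.8, 292 and 226 against 540.5, 544 and 502 (1.30 ± 0.19), and Gaa, acid alpha-glucosidase, 270.1, 415 and 332 against 756, 618 and 666 (1.02 ± 0.14). The count was 43 without WT4 and 22 without WT6.

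Promoters of lysosomal genes are known for the E-box-like motif bound by TFEB and related factors, so the 250 bases before each RefSeq start (GRCm38.p6) were searched for CACGTG, which is its own reverse complement. It was present for 10 of the 29 lysosome genes that rose and have a promoter in the table, and for 5 of the 16 that were not called, against 6.86% of 27025 genes and 10.2% of the tested genes. These shares were 34.5% of the risen and 31.2% of the uncalled list members. The 3 promoters below belong to the genes with the smallest adjusted p among the risen genes that hold the motif, of which Atp6v1a, a subunit of the lysosomal proton pump (0.92 ± 0.14), is named for its promoter after its value was seen. Each is written 5′ to 3′ on the strand of its gene, with the motif in capitals: Gaa (chr11:119267713-119267962, plus strand), Glb1 (chr9:114400828-114401077, plus strand) and Atp6v1a (chr16:44139260-44139509, minus strand).
Gaa: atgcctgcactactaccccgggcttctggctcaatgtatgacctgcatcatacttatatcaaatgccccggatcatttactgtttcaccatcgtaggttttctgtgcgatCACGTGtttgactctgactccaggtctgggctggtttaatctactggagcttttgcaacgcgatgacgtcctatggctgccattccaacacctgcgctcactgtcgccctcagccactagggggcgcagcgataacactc
Glb1: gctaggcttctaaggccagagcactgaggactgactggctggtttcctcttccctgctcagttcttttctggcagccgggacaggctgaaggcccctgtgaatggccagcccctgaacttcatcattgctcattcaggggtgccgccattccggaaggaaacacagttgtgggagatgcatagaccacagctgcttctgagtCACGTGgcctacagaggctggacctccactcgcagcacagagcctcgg
Atp6v1a: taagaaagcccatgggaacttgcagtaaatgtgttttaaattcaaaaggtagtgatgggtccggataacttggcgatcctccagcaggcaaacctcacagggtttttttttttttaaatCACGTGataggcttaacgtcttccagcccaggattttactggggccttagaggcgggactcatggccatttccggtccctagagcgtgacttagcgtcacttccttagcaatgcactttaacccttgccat
The motif starts 140, 48 and 131 bases before the annotated start, in that order. A match of letters describes these promoters and says nothing of binding in these cells.

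Of 34 ER folding and secretion genes, all tested, 18 rose and 0 fell (edgeR 17 and 0), with a median of 0.74, and 8 held. Rpn2, a subunit of the oligosaccharyltransferase that adds N-glycans, had 598, 813 and 783 against 1608, 1648 and 1443 (1.11 ± 0.12, adjusted p = 0.00121), and Ddost, another subunit, 357, 494 and 419 against 778, 923 and 739.9 (0.95 ± 0.14). Hspa5, the ER chaperone BiP, had 1489, 1623 and 1345 against 2415, 5698 and 2427 (1.12 ± 0.29), with KO2 more than 2 times the other KO libraries, and its call was lost without WT3 or WT6 (adjusted p from 0.0603 to 0.0717). The ER count was 9 without WT6 or KO2 and 11 without WT3.

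The ER stress element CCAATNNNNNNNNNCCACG, on either strand (reverse complement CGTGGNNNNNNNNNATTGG), is the textbook motif of ER chaperone promoters. It was present in the same 250-base window for 6 of the 17 risen members with a promoter (Calr, Canx, Dnajc3, Hsp90b1, Hspa5 and Pdia6) and for 1 of the 11 not called (Creld2), against 0.13% of all 27025 genes. Shown are the 2 risen genes that hold it with the smallest adjusted p, Canx, the lectin chaperone calnexin (chr11:50325674-50325923, minus strand), and Calr, its soluble relative calreticulin (chr8:84846932-84847181, minus strand), with the fixed letters of the motif in capitals.
Canx: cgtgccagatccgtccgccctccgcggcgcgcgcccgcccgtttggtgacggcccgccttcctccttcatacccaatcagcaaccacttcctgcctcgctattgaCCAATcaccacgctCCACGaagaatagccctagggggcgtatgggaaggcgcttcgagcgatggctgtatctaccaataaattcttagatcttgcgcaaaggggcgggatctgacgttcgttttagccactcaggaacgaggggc
Calr: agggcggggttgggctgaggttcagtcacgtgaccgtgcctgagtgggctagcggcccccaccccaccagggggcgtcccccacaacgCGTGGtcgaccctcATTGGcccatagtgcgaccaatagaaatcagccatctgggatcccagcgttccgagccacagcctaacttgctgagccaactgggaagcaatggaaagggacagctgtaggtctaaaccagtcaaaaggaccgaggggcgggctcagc
It starts 145 bases before the start of Canx and 162 before that of Calr, where it lies on the opposite strand. Canx had 1427, 1857 and 1511 against 2557, 2976 and 2490.4 (0.75 ± 0.14) and Calr 2149, 2727 and 2068 against 3623, 4377 and 3368 (0.71 ± 0.17). Calr lost its call without WT6 or KO2 (adjusted p from 0.0554 to 0.0561). These genes were named after their promoters and values were seen.

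Cytosolic heat-shock chaperones varied widely among the KO libraries. Of 22 tested (of 23), 8 rose and 0 fell (edgeR 9 and 1), with a median of 0.81, and 2 held. Hspa1a, inducible HSP70, had 28.2, 26.2 and 73.7 against 73.6, 401 and 302 (2.42 ± 0.59), and Hspa8, its constitutive relative, 3382, 3701 and 3818 against 4689, 12880.3 and 7196 (1.06 ± 0.28). KO2 was highest and KO1 the lowest of its group for both, and KO1 overlapped WT for Hspa1a. Bag3, a cochaperone of HSP70, had 57.6, 101 and 85.3 against 164, 317 and 212 (1.48 ± 0.26) and held. The heat-shock count was 15 without KO1, 2 without WT3 or KO2, 3 without KO3 and 4 without WT6. Hspa1a lost its call without WT3, KO2 or KO3, and Hspa8 without WT3, WT6 or KO2 (adjusted p from 0.0535 to 0.0754). Both share sequence with other HSP70 genes. The heat-shock element TTCNNGAANNTTC (or GAANNTTCNNGAA) was in the 250-base window of 0 of the 7 risen members with a promoter in the table and 2 of 10 not called, against 0.514% of all genes.

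Haem, iron and antioxidant genes had a few clear rises. Hmox1, haem oxygenase 1 (chromosome 8, 75093621 to 75100589), had 105, 208 and 106 against 373, 594 and 364 (1.70 ± 0.27, adjusted p = 0.00307), beside 307 ± 55.2 (SD, n = 4) in young wild type. Every KO library was above every WT library, and the call held. Of 21 haem and iron genes tested (of 25), 8 rose and 1 fell, and Hmox1 alone held. The haem and iron count of rises was 1 without WT3, 2 without WT6 or KO1, 3 without KO2 and 5 without KO3. Of 29 NRF2, glutathione and thioredoxin genes tested (of 34), 10 rose and 0 fell, and 2 held. Gsr, glutathione reductase, had 242, 582 and 303 against 853, 731 and 764 (1.16 ± 0.25), and Prdx6, a peroxiredoxin, 179, 275 and 234 against 421, 689.8 and 379 (1.08 ± 0.24). Gclm, a regulatory subunit of glutathione synthesis and a classical NRF2 target, had 46.1, 85.1 and 43.1 against 62.3, 50.5 and 68.8 (adjusted p = 0.796). The NRF2 count was 16 without WT4, 3 without WT3 or WT6, 4 without KO1 and 6 without KO3.

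Of 26 glycolysis genes tested (of 28), 7 rose and 1 fell, with a median of 0.46, and 2 of the rises held. Hk1, a hexokinase, had 343, 476 and 438 against 727, 625 and 606 (0.65 ± 0.13), and Pkm, pyruvate kinase, 984, 1279 and 1118 against 1705, 1612 and 1725 (0.58 ± 0.13), without overlap. The glycolysis count was 11 without WT4, 3 without WT3, and 4 without WT6, KO1 or KO3. Of 12 pentose phosphate genes, 3 rose (25%) and 1 fell (8.33%), against 11.5% and 6.82% of all genes tested. Among the rises, H6pd, the ER hexose-6-phosphate dehydrogenase, had 343, 369 and 370.1 against 820.4, 533 and 627 (0.85 ± 0.15) and held. Pentose phosphate rises numbered 5 without WT4 and 1 without KO1, and the fall (Prps2, with overlapping groups) was lost without WT3, WT6, KO1 or KO2 (adjusted p from 0.0913 to 0.132). Of 34 TCA cycle genes, 2 rose and 0 fell, and of 73 nuclear respiratory chain genes tested (of 74), 2 rose (Ndufb4 and Ndufb5) and 0 fell (edgeR 0 and 0), with a median of 0.13. The rises were 5.88% and 2.74% of these lists, below the 11.5% of all genes tested. Cs, citrate synthase, had 338, 387 and 393 against 337, 319.7 and 385 (adjusted p = 0.608). At an unadjusted p under 0.05, 15 respiratory chain genes were higher and 0 lower. Without WT4, 5 TCA and 9 respiratory chain genes rose by the adjusted p, and without WT3 or WT6 0 respiratory chain genes did.

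The 15 transcripts of the mitochondrial genome were all lower in mean, with log2 fold changes from -1.41 to -0.91, and 5 fell. mt-Nd5, a subunit of complex I, had 7237, 19339 and 7734 against 5219, 4503 and 5131 (-1.06 ± 0.31), and mt-Co1, a subunit of complex IV, 12593, 34141 and 14211 against 8968, 9384 and 10129 (-0.95 ± 0.30). WT4 was more than 2 times the other WT libraries in both. Without WT4 the median log2 fold change of the 15 moved from -1.06 to -0.52, so much of its size rests on that library. The count of falls was 5 without WT4 too, 8 without WT3, 0 without KO1, 1 without KO2 and 2 without KO3. Both genes lost their calls without any 1 KO library, mt-Co1 also without WT6 (adjusted p from 0.0563 to 0.122). These genes make up the mitochondrial share of reads given above, and 13 of 15 were lower at an unadjusted p under 0.05.

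Purine, NAD and kynurenine genes contained some well-separated members. Of 25 purine genes, 7 rose (28%) and 2 fell (8%), against 11.5% and 6.82% of all genes tested. Nt5e, the ectonucleotidase CD73 that makes adenosine, had 279, 359 and 351 against 629, 747 and 650.4 (1.04 ± 0.14, adjusted p = 0.00176), and Xdh, xanthine oxidoreductase, 584, 1282 and 672 against 1839, 1999 and 1293 (1.08 ± 0.25). Xdh lost its call without WT3, WT6, KO1 or KO2 (adjusted p from 0.0504 to 0.0571). The purine count of rises was 3 without WT3, KO1 or KO2, and 4 without WT6, and that of falls was 0 without WT3, WT6 or KO2 and 1 without KO1. Of 18 NAD and kynurenine genes tested (of 29), 2 rose and 5 fell, with a median of -0.40, and 2 in each direction held. Kynu, kynureninase, had 106, 64.4 and 97.9 against 21.5, 16.0 and 41.3 (-1.81 ± 0.37), beside 24.2 ± 7.36 (SD, n = 4) in young wild type, and Kmo, the enzyme before it in the pathway, 47.4, 56.7 and 55.7 against 26.6, 24.8 and 18.4 (-1.17 ± 0.22). Nadk, NAD kinase, rose from 507, 569 and 558 to 742, 805 and 831 (0.54 ± 0.10). The groups did not overlap for these 3 genes. The count of falls was 2 without WT3, WT6 or KO2, and 3 without KO3.

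Of 31 lipid uptake, storage and efflux genes tested (of 36), 10 rose and 1 fell, with a median of 0.61, and 6 of the rises held. Fabp4, among the 12 largest rises, had 147, 248 and 233 against 727, 837 and 493 (1.71 ± 0.24), and Soat1, which esterifies cholesterol, 291, 354 and 309 against 492, 516 and 443 (0.61 ± 0.11). Lpl, lipoprotein lipase, had 287, 360.1 and 467 against 1190.3, 426 and 393 (adjusted p = 0.191), where KO1 was high, the other two overlapped WT, and all aged libraries lay below the young mean of 2176 ± 377 (SD, n = 4). Without KO1, 6 genes of the list rose. Of 22 cholesterol synthesis genes tested (of 25), 2 rose (Ebp and Mvd) and 2 fell. Of the rises, 0 passed without WT3, WT6 or KO2 and 1 without KO1 or KO3. Srebf2, the transcription factor SREBP2 that drives this pathway, fell from 1279.9, 816 and 726 to 436, 462 and 438 (-1.03 ± 0.18, adjusted p = 0.00442), to the young level of 452 ± 48.9 (SD, n = 4), and held.

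Growth factor and Wnt pathway genes had calls in both directions. Of 34 growth factor genes and receptors tested (of 52), 11 rose and 1 fell, with a median of 0.62, and 7 of the rises held. Fgfr1, a receptor of fibroblast growth factors (chromosome 8, 25513654 to 25575718), had 1190.3, 1829 and 1598 against 4446, 4638 and 3964 (1.52 ± 0.15, adjusted p = 0.000856), beside 4089.9 ± 194 (SD, n = 4) in young wild type. Bmpr2, a receptor of bone morphogenetic proteins, had 165, 244 and 199 against 433, 441 and 365 (1.04 ± 0.15). Igf1, insulin-like growth factor 1, had 47.4, 103 and 62.9 against 132, 68.9 and 115 with overlapping groups (adjusted p = 0.204). The growth factor count was 7 without WT3. Of 24 Wnt pathway genes tested (of 38), 8 rose (33.3%) and 2 fell (8.33%), against 11.5% and 6.82% of all genes tested. Among these calls, 3 of the rises and both falls held. Besides Fzd1, Fzd4, another Wnt receptor, had 33.3, 31.6 and 40.4 against 105, 112 and 109 (1.61 ± 0.18, adjusted p = 0.00121), beside 93.3 ± 17.5 (SD, n = 4) in young wild type. The 2 that fell, Tcf7 and Lef1, are Wnt effectors that T cells express, and Lef1 had 58.9, 70.9 and 20.7 against 6.13, 12.02 and 6.88 (-2.33 ± 0.49). The Wnt count of rises was 4 without WT3 or WT6, 5 without KO1 or KO3, and 3 without KO2.

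Genes of division and senescence mostly missed the threshold. Of 43 cell cycle genes, all tested, 3 rose and 1 fell (edgeR 2 and 1), although their median log2 fold change was 0.68. That was 6.98% and 2.33%, below the 11.5% and 6.82% of all genes tested. Mki67, the proliferation marker Ki-67, had 193, 203 and 489 against 553, 584 and 387 (adjusted p = 0.125), where WT6 overlapped the KO libraries and all 6 were below the young mean of 1397 ± 660.1 (SD, n = 4). Without WT6, 9 genes of the list rose, and 1 rose without WT3, KO1 or KO2. E2f8, a cell cycle transcription factor, had 6.40, 12 and 13.5 against 25.5, 27.2 and 31.0 (1.37 ± 0.28) and held. Of 22 CDK inhibitor, p53 and senescence genes tested (of 25), 1 rose (Glb1) and 2 fell (Rb1 and Trp53inp1), with 3 rises without KO3 and 2 without WT4. Cdkn1a, p21, had 131, 74.2 and 88.0 against 119.5, 308 and 117 (adjusted p = 0.162), and Cdkn2a, the p16 and p19 locus, 8.96, 17.5 and 22.5 against 10.2, 12.8 and 25.2 (adjusted p = 0.967). The groups overlapped for both. Rb1 and Trp53inp1 lost their calls without WT3, WT6 or KO2, Rb1 also without KO3 and Trp53inp1 without KO1 (adjusted p from 0.0702 to 0.134).

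Lists of general cell machinery had medians near that of all genes. Of 52 ribosomal protein genes, 0 rose and 2 fell, with a median of -0.07 and log2 fold changes from -0.48 to 0.16, and of 36 proteasome genes, 0 rose and 3 fell, with a median of 0.03. Psmd14, a deubiquitinase of the proteasome lid, had 220.1, 236 and 181 against 122, 123 and 139.9 (-0.72 ± 0.13) and held. Psmb8 and Psmb9, the immunoproteasome subunits, also fell (-0.52 ± 0.17 and -0.84 ± 0.21), but lost their calls without WT3, WT6, KO1 or KO2 (adjusted p from 0.0508 to 0.165). The remaining lists had few calls, most at shares near those of all genes tested, of which 11.5% rose and 6.82% fell. Of 17 small macrophage and monocyte genes, 2 rose and 1 fell (11.8% and 5.88%), and of 15 alternative activation genes 2 and 1 (13.3% and 6.67%). Of 25 integrated stress response genes, 1 rose and 2 fell (4% and 8%), and of 17 clock genes 2 and 2 (11.8% each). These small counts moved with single libraries. Rises in the small macrophage list numbered 7 without WT4, 5 without KO3, 1 without KO1 and 0 without WT3, WT6 or KO2 (6 by DESeq2), and those in the alternative activation list 5 without WT4 or KO3 and 1 without each of the others (4 by edgeR and 5 by DESeq2). Clock genes had 3 rises without KO3, 1 without KO1 and 0 without WT3, WT6 or KO2, and their falls were 0 without the last 3 and 1 without KO1 or KO3. The stress response list had 4 rises without WT4 and 1 fall without each of the others, and the ribosomal list 0 falls without WT3, KO1 or KO2. Arg1, arginase 1, ranged widely in both groups (442, 1859 and 234 against 2478, 129.8 and 286, adjusted p = 0.825). Under TMM scaling the 2 lists of resident identity and lysosome had 23 and 33 rises, and the ribosomal list 0.

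**Figure D4:**
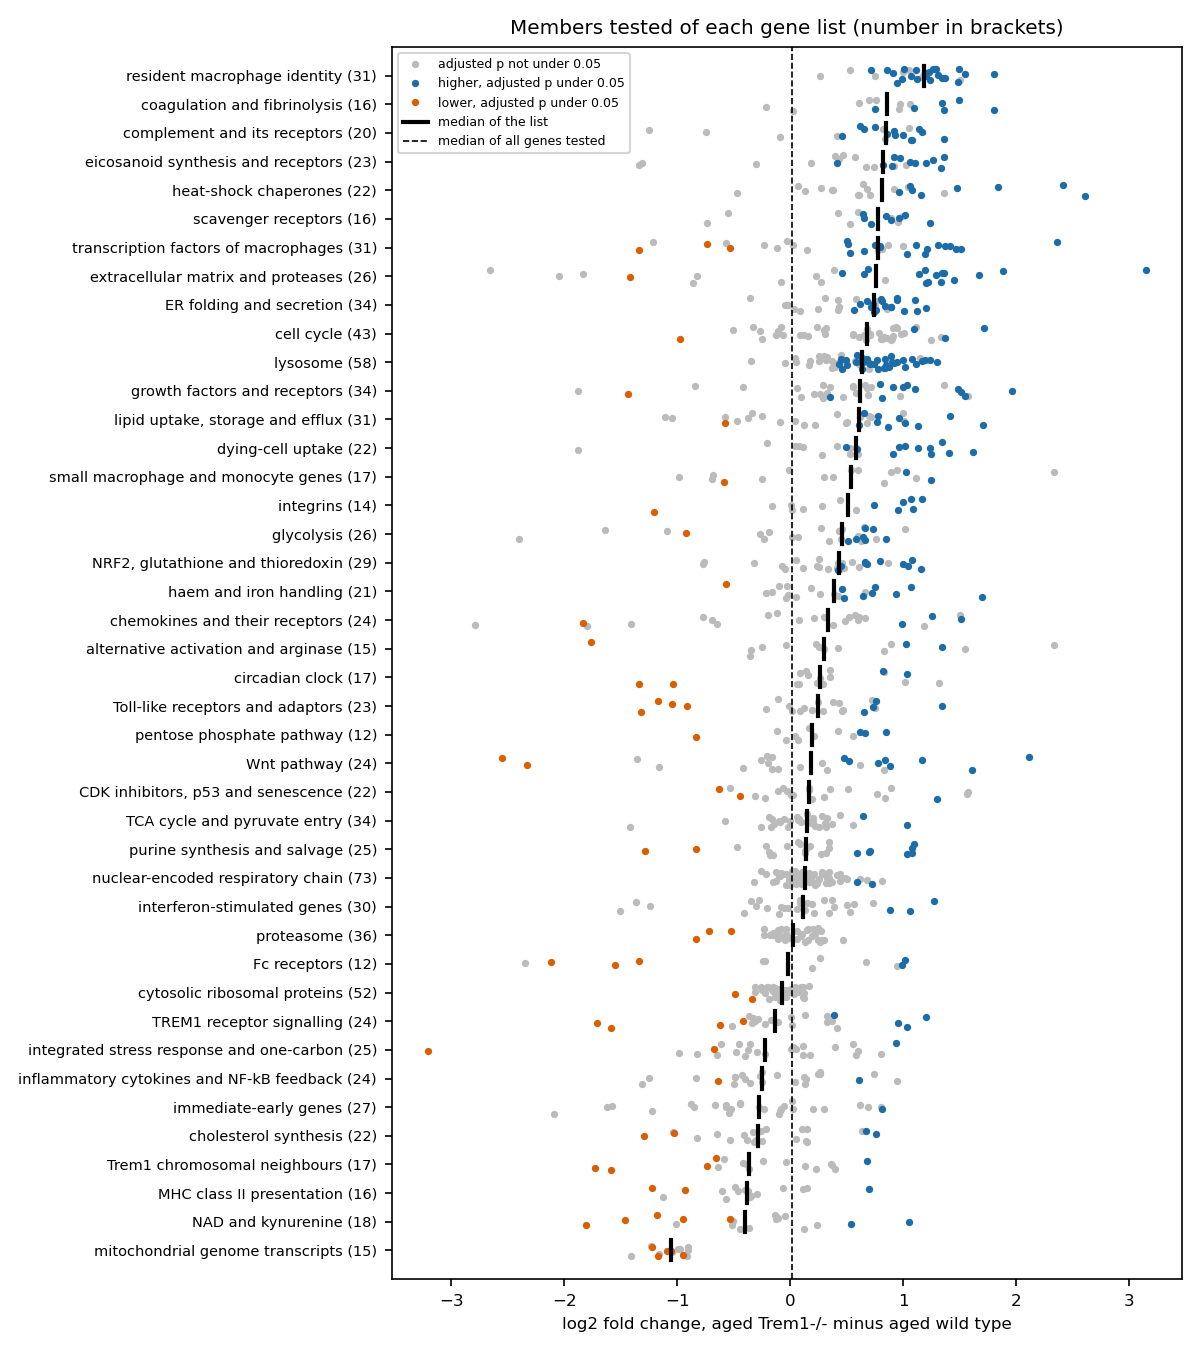
Log2 fold change (aged Trem1-/- minus aged wild type) of each tested member of 42 gene lists, 1 point per gene, with the median of the list as a black bar and the median of all genes tested as a dashed line. Blue points rose, orange points fell and grey points did not pass. The resident macrophage identity list has the highest median (1.19) and the mitochondrial genome list the lowest (-1.06, which became -0.52 without WT4).

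Trem1 lies on chromosome 17 in a cluster with the other TREM receptors. Of 17 neighbouring genes tested (of 29), 1 rose and 4 fell, with a median of -0.37. These were 5.88% and 23.5%, against 11.5% and 6.82% of all genes tested. Ccnd3, cyclin D3, rose from 333, 314 and 329 to 454, 649.7 and 478 (0.68 ± 0.14), and Mrps10, a mitochondrial ribosomal protein, fell from 81.9, 84.0 and 67.4 to 47.0, 51.3 and 48.2 (-0.66 ± 0.15). Both held, while Unc5cl, Treml2 and Tfeb fell and lost their calls without WT3 or WT6, among others (adjusted p from 0.0528 to 0.187). The 4 falls numbered 5 without WT4, 1 without WT3, WT6 or KO1 and 2 without KO2 or KO3. Within 5 Mb of Trem1, 4 of 67 tested genes rose (5.97%) and 9 fell (13.4%), with a median of -0.14. These values were near those of all of chromosome 17 (576 genes, 7.47% and 12.3%, median -0.14). On the other chromosomes 11.8% rose and 6.53% fell.

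Chromosomes 15 and 17 had lower median fold changes than the other 18, a pattern noticed after the values were seen. Over 10502 protein-coding genes, the median log2 fold change was -0.16 on chromosome 15 (417 genes, 37 rose and 59 fell) and -0.13 on chromosome 17 (544 genes, 41 rose and 67 fell), against -0.02 to 0.09 on each of the other 18 chromosomes. The share of genes that fell was 14.1% and 12.3%, against 3.48% to 7.69% elsewhere. By library, the median level of chromosome 15 genes relative to young wild type and to the median chromosome was 0.43, 0.27 and 0.15 (log2) in the WT libraries and 0.05, 0.03 and 0.0007 in the KO libraries. That of chromosome 17 was 0.32, 0.14 and 0.05 against 0.02, -0.003 and -0.009. Every other chromosome in every library lay between -0.08 and 0.09. WT3 and WT4 lay above that range on both chromosomes and WT6 on chromosome 15, while WT6 on chromosome 17 and the KO libraries on both were within it. An exact permutation test of 3 against 3 gave p = 0.1 for each, the smallest possible, as it did for chromosomes 10 and 14, and 0.5 after adjustment over 20 chromosomes. Without WT3 the median was -0.09 on chromosome 15, still below the other chromosomes (-0.03 to 0.10), and -0.02 on chromosome 17, within their range. B cell marker sums were 23182, 15310 and 22148 in the WT libraries and 10788, 7197 and 14355 in the KO libraries. WT6 had a higher sum than WT4 but lower levels on both chromosomes. The part of B cells in this pattern was not tested.

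**Figure D5:**
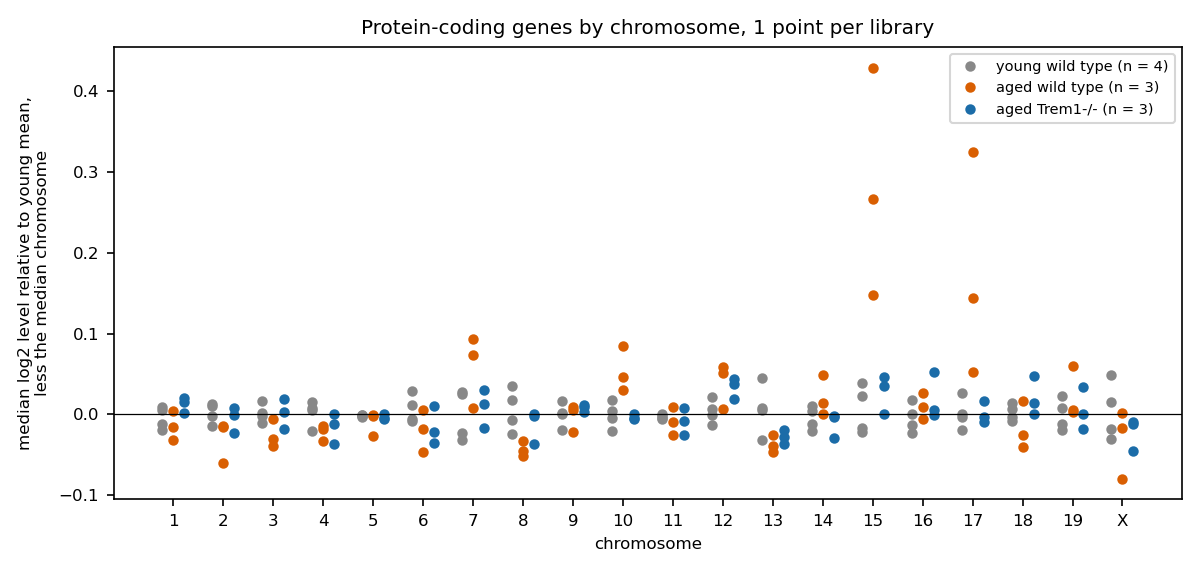
Median log2 level of the protein-coding genes of each chromosome relative to the young wild-type mean, less the median chromosome, 1 point per library. Aged wild-type libraries (orange) lie at 0.15 to 0.43 on chromosome 15 and 0.05 to 0.32 on chromosome 17, and all other points lie between -0.08 and 0.09.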

How the data were processed

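RNA-seq of 10 peritoneal macrophage libraries was deposited by the authors as 1 table of DESeq2-normalized counts per gene (a signal that is each library's read count divided by 1 factor), and per the submitters' processing notes fastp, STAR, featureCounts 1.5.0-p3, DESeq2 1.20.0 and the build GRCm38 were used; the sources used here give no annotation, strand setting or order of steps. All per-library columns were mapped to samples. Whole reads were recovered for 100% of values (tolerance 1e-06). limma 3.58.1 (R 4.3.3, trend, empirical Bayes) was fitted to log2(normalized count + 1) for the 11506 of 54532 genes with a mean of at least 10, over all 10 libraries in 3 groups without covariates, with Benjamini-Hochberg adjustment over all genes tested. The minimum mean is taken over all 10 libraries, so a gene can pass it through the group where it is high. Gene positions are from GENCODE M21 and promoters from RefSeq. Of 250 genes that the naming rule gives, 20 share at least 20% of their 50-base stretches with transcripts of other genes. Among them are mt-Co1 (51.1%), Oas1a (57.6%), Pkm (25.8%), H2-DMb2 (24.8%), Hba-a1 (72.3%) and Hbb-bs (53.2%). Reads of such genes may be counted in part for another gene or not at all.

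Named genes are Trem1, the 12 largest rises and falls that held without overlap, the 8 most abundant calls in each direction, and up to 4 calls in each direction plus anchor genes per list; others are said to be chosen after their values were seen. A few genes that the rule names are not reported here. The members and the lists were chosen with earlier results of these data known. Alternatives were a pseudocount of 5, mean minimums of 1 and 50, TMM scaling, the 6 aged libraries alone, edgeR 4.0.16 (quasi-likelihood) and DESeq2 1.42.0 on the recovered reads, and leaving out each library. The fit was tested on simulated data. The depth of 2663744 to 4628187 reads limits precision for low genes, and these reads without molecular identifiers are not known to be independent molecules.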

Additional observations from a re-analysis of the deposited data

Results flagged for a closer look

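In 5 of 23 levels checked in young wild type (n = 4), 1 library lay far from the other 3; chance alone marks about 1 in 20 such groups. Zbtb16 was high in 1 young library, at 453.9 normalized counts, and Hmox1 and Fn1 were high in another, at 389 and 247959. Adgre1 was low in a further library, at 4008, and Timd4 was low, at 718, in the library with the high Hmox1 and Fn1 values. These libraries enter the spread and the young reference levels and not the difference between the aged groups. Groups of 3, such as the aged ones, were not examined in this way.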

How the results depend on the processing

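No paired analysis was possible because the aged groups share only 1 replicate number. The counts of 1327 higher and 785 lower became 726 and 445 with the 6 aged libraries alone, and 714 and 415 of these were among the 1327 and 785. That fit has fewer libraries, and its spread comes from the aged groups only. The part of each in the smaller counts was not tested. Without 1 aged library the counts of higher and lower genes ranged from 762 to 1782 and from 318 to 1020. List members called higher (243) and lower (73) became 144 and 43 with the aged libraries alone and ranged from 138 to 319 and from 31 to 101 without 1 aged library. The counts stayed within 1.5 times under the other 6 alternatives and without any 1 young library. Of 217 named genes with a call, 74 lost it with the aged libraries alone, 10 by edgeR, 5 by DESeq2, 5 by TMM scaling, 17 with the minimum of 1, and 12 to 82 without 1 aged library.

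The Trem1 ratio ranged from 0.526 (without KO2) to 2.26, and its log2 fold change from -0.70 to 0.73, turning negative also without WT4 (-0.33). Other reversals were in genes without a call, as log2 fold changes. Arg1 was 0.16 by edgeR and 0.16 by DESeq2 and ranged from -1.58 to 0.54 without 1 library (0.49 without WT4). Arntl was -0.023 by edgeR and -0.024 by DESeq2 and ranged from -0.19 to 0.25 (-0.05 without KO1). The ranges without 1 library were -0.39 to 0.24 for Cdkn2a, -1.20 to 0.15 for Fos, -0.061 to 0.42 for Gclm, -0.013 to 0.10 for Ndufs1 and -0.023 to 0.12 for Rplp0. The cause was not tested. Depth limits genes near 3 reads, which are 2.40 to 3.84 normalized counts.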

Other observations

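The families below were chosen after their values were seen and are given as a description. All 8 GIMAP genes tested, which encode GTPases of lymphocyte survival also found in other blood cells, fell, with log2 fold changes from -1.82 to -0.86. Gimap4 had 955, 707 and 794 normalized counts in WT3, WT4 and WT6 and 227, 215 and 374 in KO1, KO2 and KO3, beside a young mean of 177. Gimap3 had 971, 756 and 729.5 against 292, 232 and 357. In both genes every KO library lay below every WT library. Gimap7 lost its call without KO1 (adjusted p = 0.0531), and Gimap9 without 5 of the 6 aged libraries (all but KO2, adjusted p from 0.053 to 0.148). The T and NK cell marker sums (741 to 1131 in WT and 471 to 533 in KO) and the B cell marker sums (15310 to 23182 and 7197 to 14355) moved in the same direction, and their part in the GIMAP levels was not tested.

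Enzymes that modify collagen rose beside the matrix genes: 4 of the 4 prolyl and lysyl hydroxylase genes tested were higher and held. Plod3, a lysyl hydroxylase, had 346, 595 and 476 against 1152, 1239 and 1046 (log2 fold change 1.31 ± 0.16 SE), and P4ha1, a prolyl 4-hydroxylase subunit, had 105, 189 and 127 against 325, 552 and 379 (1.58 ± 0.24). No groups overlapped. Besides Tjp1, the tight junction genes Marveld1 (232, 211 and 259.6 against 620.2, 624 and 529.96) and Ocln, occludin (20.5, 38.2 and 31.4 against 79.7, 67.3 and 104) rose and held, while F11r and Tjp3 fell and lost their calls without 5 and 4 of the 6 aged libraries, among them WT3, WT6, KO1 and KO2 (adjusted p from 0.0543 to 0.16). Of 4 caveolin and cavin genes tested (median 0.32), Cav1 and Cav2 rose (1.25 ± 0.25 and 1.26 ± 0.17), and Cavin1 (-0.60, adjusted p = 0.666) and Cavin2 (-3.16, adjusted p = 0.116) did not pass. F11r and Cavin2 reached the minimum mean of 10 over all libraries only through aged wild type, where they were high. Their means were 57.2 and 23.3 in aged wild type, 11.8 and 5.61 in the KO libraries, and 2.635 and 9.72 in young wild type.

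Calls in noncoding gene classes were mostly falls: 34 of 212 genes of the annotation class TEC, whose transcripts await experimental support, (16.0%), 24 of 135 lincRNA genes (17.8%) and 25 of 133 antisense genes (18.8%), against 659 of 10502 protein-coding genes (6.28%). This stands beside the larger protein-coding share of reads in the KO libraries, and its cause was not tested.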
